A study of Mus musculus with 6 samples.

Results

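The genes examined here encode machinery of endosomes and lysosomes. Of these, 6 encode subunits of the HOPS tethering complex (Vps11, Vps16, Vps18, Vps33a, Vps39 and Vps41). Another 3 encode subunits of the BLOC-1 complex (Bloc1s1, Bloc1s2 and Bloc1s6), and Rab7 encodes a small GTPase. The 10 genes were taken by name from the rows whose platform annotation gave a single gene symbol, and all 10 were found among the 20259 genes measured this way. They had 15 rows in all, 5 genes with 1 row and 5 genes with 2 rows, and where a gene had 2 rows the brighter on average stood for it. Vps18 and Bloc1s6 were chosen by their expression values, because the knockout and wild-type arrays did not overlap for them, so their differences are given as a description, with no test. The other 8 genes were listed for their complex, with earlier results of these data known, and were tested.

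RNA was measured on 6 expression arrays, 1 per sample, from pancreas cells sorted for GFP by flow cytometry out of KCiMist1G mice, a model of preinvasive pancreatic cancer. Mice of both groups received tamoxifen, which activates their Cre recombinase, at 7 to 9 weeks of age, and the sort followed 2 weeks after that. The groups were KCiMist1G; p120wt/wt (wild type, 3 arrays) and KCiMist1G; p120f/f (knockout, 3 arrays), p120 catenin being the adherens junction protein encoded by Ctnnd1. Everything in the KCiMist1G background was shared by both groups, and the labels spell out neither its alleles nor the promoter that drives the Cre. Whether each biological replicate was a single mouse or several is also not labelled, so the spread behind each p-value is that between samples and may be in part technical. The question of the series is how the transcriptome differs with and without p120 catenin.

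HOPS bridges membranes that carry Rab7 and promotes their SNARE-driven fusion, so that late endosomes and autophagosomes deliver cargo to lysosomes. Vps11, Vps16, Vps18 and Vps33a form the core that HOPS shares with the early endosomal complex CORVET, while Vps39 and Vps41 belong to HOPS alone. BLOC-1 sorts cargo from endosomes to lysosome-related organelles such as melanosomes and platelet dense granules. Bloc1s6 is the gene disrupted in the pallid mouse and Vps33a the gene mutated in the buff mouse, both known for pale coats. Pancreatic acinar cells hold lysosomal hydrolases as well as digestive zymogens, and any part of these genes in keeping them apart was not tested.

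Several facts of the arrays bear on all values below. The values are RMA log2 expression, so a difference of 1 is a doubling, and RMA compresses the differences of dim genes. The first principal component, with 51.7% of the variance, placed knockout array 1 at -38.1, the wild-type arrays between -14.9 and -4.16, and knockout arrays 2 and 3 at 28.4 and 37.1, so knockout array 1 stood apart from its group. Ctnnd1 did not separate the groups: the arrays labelled knockout gave 5.61, 6.61 and 6.38 and the wild-type arrays 5.87, 6.81 and 6.44, so every direction here is that of the labels. Its 1 row checks nothing if it reads transcript outside the deletion. The 8 measured acinar markers included Cela1, Cel, Cpa1 and Ctrb1 at mean log2 values of 12.08 to 13.77, so acinar transcripts were present in the sorted cells. Markers of other cells were also present. Their levels are set beside the results further on.

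Vps18 was lower and Bloc1s6 was higher on all 3 knockout arrays than on any wild-type array, and the other 8 genes lay close to 0. Across all genes, limma called none between the groups (0% of 20259 at an adjusted p under 0.05), and 0 of the 8 tested members were called. At an unadjusted p under 0.05, limma gave 708 genes (3.49%), 467 higher (2.31%) and 241 lower (1.19%), and 0 of the 8 tested members. The groups did not overlap for 3 of the 10 members, Vps18, Bloc1s6 and Vps11, against 8.69% of all genes. The first 2 of these were chosen for it, which leaves Vps11 as 1 of 8, near that background. By sign 6 of the 10 members were above 0, beside 61.7% of all genes. With array weights, which gave knockout array 2 a weight of 8.57, 4797 genes passed and 0 of the 8 tested members did. The median difference of the 8 tested members was 0.0046, beside 0.055 over all genes.

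**Figure D1:**
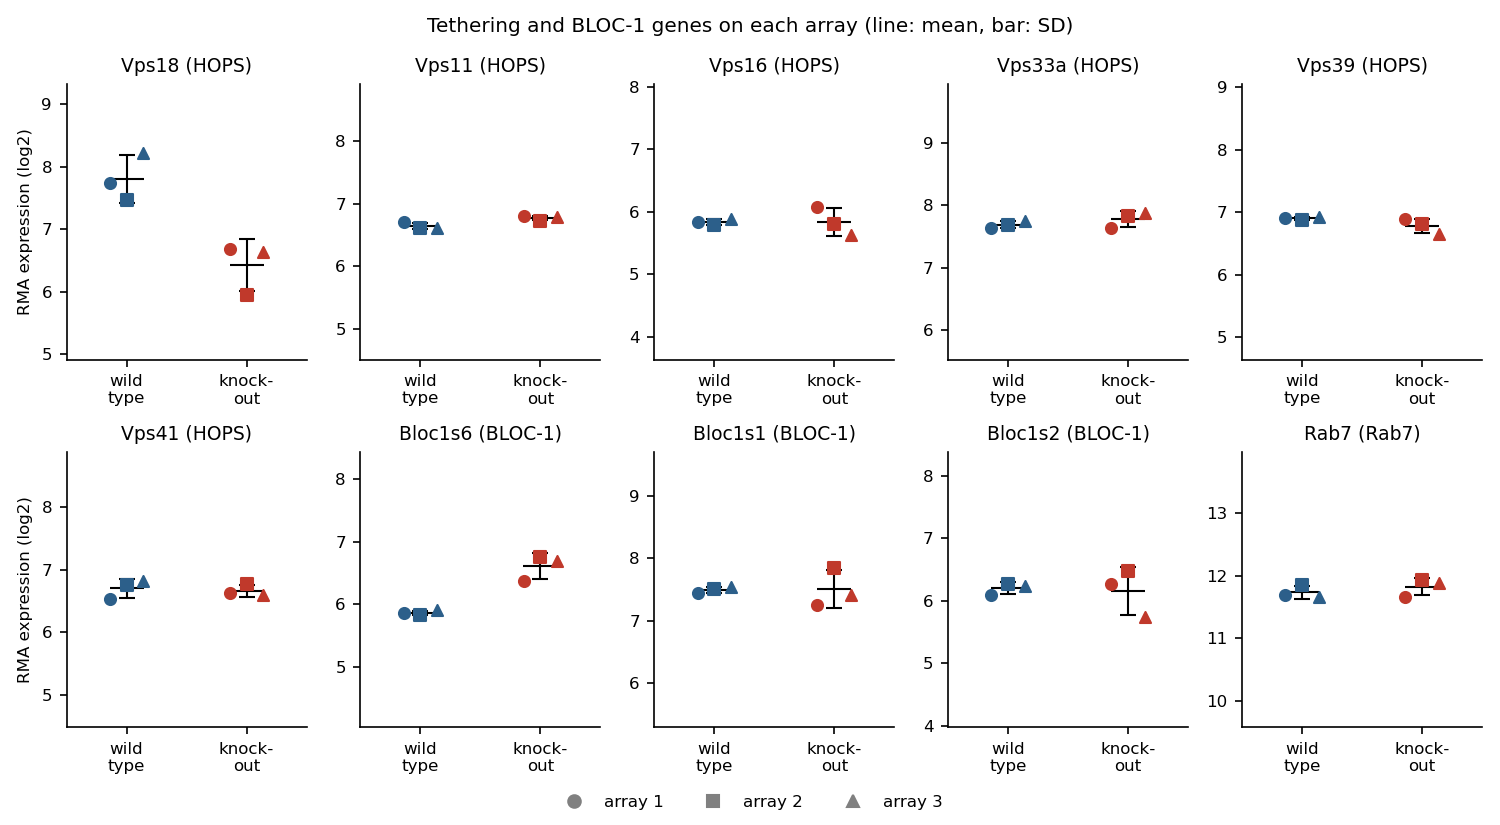
RMA log2 expression of the 10 genes on each array, wild type on the left (blue) and knockout on the right (red) of every panel, with marker shapes for arrays 1 to 3 of each group, a line at the mean and bars of 1 SD. All panels span the same number of log2 units. Vps18 had a mean of 7.81 in wild type and 6.43 in knockout and Bloc1s6 of 5.87 and 6.61, whereas the other 8 means differed by at most 0.13.

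Vps18 encodes a core subunit of HOPS and CORVET that carries a RING domain. Its log2 values were 7.74, 7.47 and 8.22 on the wild-type arrays and 6.70, 5.95 and 6.64 on the knockout arrays. Every knockout array lay below every wild-type array, and knockout array 2 was the lowest of all. The wild-type mean was 7.81 ± 0.38 and the knockout mean 6.43 ± 0.42 (SD, n = 3), a difference of -1.38 on the log2 scale, or 2.61-fold lower. Among all genes this was the 11th lowest difference, and among the 25539 rows with a single symbol the 34th lowest. The second Vps18 row gave 6.79, 6.76 and 6.72 in wild type and 6.32, 6.01 and 6.14 in knockout. It did not overlap between the groups either, with a smaller difference of -0.60 (1.52-fold), so the rows shared a direction and not a size. With each array left out in turn, the difference of the first row stayed between -1.55 and -1.14. That of the second row stayed between -0.68 and -0.53. The sign could not change, as the groups overlapped in neither row and Vps18 was chosen for its separation.

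Bloc1s6 encodes pallidin, a BLOC-1 subunit that binds the endosomal SNARE syntaxin 13. Its log2 values were 5.86, 5.83 and 5.90 on the wild-type arrays and 6.37, 6.76 and 6.69 on the knockout arrays. All knockout arrays were above all wild-type arrays, and knockout array 1 was nearest to them. The means were 5.87 ± 0.034 and 6.61 ± 0.21 (SD, n = 3), a difference of 0.74, or 1.67-fold. The second Bloc1s6 row separated the groups much further: it gave 3.50, 3.29 and 4.18 in wild type and 6.14, 6.61 and 6.09 in knockout. Its means were 3.66 ± 0.46 and 6.28 ± 0.29 (SD, n = 3). Wild-type values were dim in this row, beside medians of all rows of 4.17, 4.09 and 4.08 on wild-type arrays 1, 2 and 3. The difference of this row, 2.63 (6.17-fold), was the highest of all 25539 rows with a single symbol, rank 1. By the row used for each gene, Bloc1s6 had the 67th highest difference among all genes. The row used for the gene is therefore the one with the smaller difference, and leaving out single arrays gave 0.66 to 0.86 for it and 2.44 to 2.89 for the second row. Syntaxin 13, encoded by Stx12, differed by -0.0093 (SE 0.11) in limma, with an adjusted p of 0.988.

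**Figure D2:**
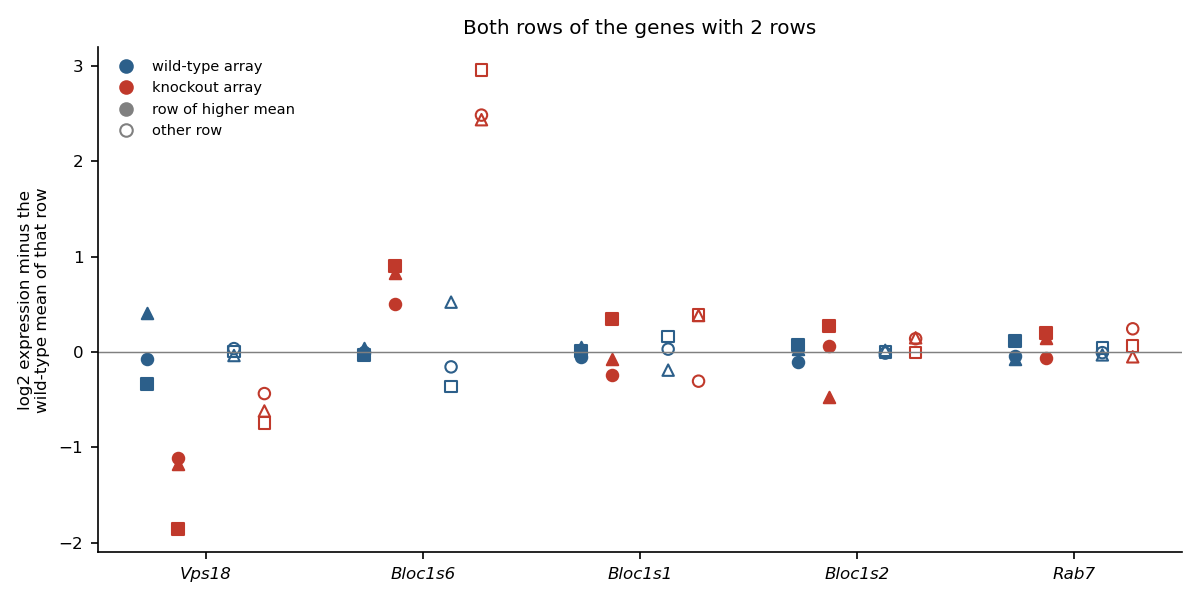
Log2 expression of each array minus the wild-type mean of the same row, for the 5 genes with 2 rows. Filled markers are the row of higher mean and open markers the other row, in blue for wild type and red for knockout, with a circle, square and triangle for arrays 1, 2 and 3. Both rows of Vps18 lie below 0 and both of Bloc1s6 above 0 on every knockout array, while the rows of Bloc1s1, Bloc1s2 and Rab7 scatter around 0.

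The other core subunits of HOPS were tested, unlike Vps18, and none passed the threshold. Vps11, a scaffold subunit with a RING domain like that of Vps18, gave 6.70, 6.61 and 6.61 in wild type and 6.80, 6.73 and 6.79 in knockout. The groups did not overlap, but the difference was only 0.13 (SE 0.11, limma adjusted p = 0.907), and the exact two-sided permutation p was 0.1, the smallest that 3 arrays against 3 allow. Vps16, which binds Vps33a in the core, gave 5.84, 5.79 and 5.88 in wild type and 6.07, 5.80 and 5.64 in knockout. Its wild-type arrays lay inside the range of the knockout arrays, and the difference was 0.00015 (95% confidence interval -0.33 to 0.33, limma adjusted p = 1). Vps33a, the Sec1/Munc18-type subunit whose yeast counterpart templates SNARE assembly, gave 7.63, 7.69 and 7.75 in wild type and 7.63, 7.83 and 7.88 in knockout. Knockout arrays 2 and 3 were above all wild-type arrays and array 1 was level with the lowest of them, for a difference of 0.090 (95% confidence interval -0.19 to 0.37, limma adjusted p = 0.908).

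The subunits that belong to HOPS alone overlapped between the groups. Vps39 gave 6.90, 6.88 and 6.93 in wild type and 6.88, 6.81 and 6.66 in knockout. The knockout arrays ran lower but touched the wild-type range, with a difference of -0.12 (95% confidence interval -0.39 to 0.15, limma adjusted p = 0.907). Vps41 gave 6.53, 6.76 and 6.82 in wild type and 6.63, 6.77 and 6.60 in knockout. These values interleaved, and the difference was -0.039 (95% confidence interval -0.34 to 0.26, limma adjusted p = 0.954).

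Bloc1s1 and Bloc1s2, which sit in BLOC-1 and also in BORC, the complex that couples lysosomes to outward transport, overlapped between the groups in both of their rows. The first Bloc1s1 row gave 7.44, 7.503 and 7.55 in wild type and 7.26, 7.85 and 7.42 in knockout. Knockout array 2 was the highest and knockout array 1 the lowest, and the difference was 0.0091 (95% confidence interval -0.38 to 0.40, limma adjusted p = 0.992). The second Bloc1s1 row differed by 0.15 (SE 0.22, limma adjusted p = 0.914 over all single-symbol rows). The first Bloc1s2 row gave 6.09, 6.27 and 6.23 in wild type and 6.26, 6.47 and 5.73 in knockout. Its knockout arrays spread to both sides of wild type, with knockout array 3 the lowest, and the difference was -0.045 (95% confidence interval -0.51 to 0.42, limma adjusted p = 0.966). The second Bloc1s2 row differed by 0.094 (SE 0.11, limma adjusted p = 0.911 over all single-symbol rows), of the opposite sign.

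Rab7, the GTPase that marks late endosomes and recruits their tethers, overlapped between the groups in both rows. The first row gave 11.70, 11.85 and 11.66 in wild type and 11.67, 11.93 and 11.88 in knockout. Knockout array 1 lay among the wild-type arrays and knockout arrays 2 and 3 above them, and the difference was 0.090 (95% confidence interval -0.21 to 0.39, limma adjusted p = 0.909). The second row gave 9.07, 9.12 and 9.05 in wild type and 9.32, 9.14 and 9.03 in knockout, with a difference of 0.084 (SE 0.12). Across the 8 tested members the intervals ran no lower than -0.51 and no higher than 0.42. Knockout arrays were more spread than wild-type arrays for 8 of the 10 members, beside 70.2% of all genes.

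Promoter sequences were matched for 7 of the 10 members, Bloc1s1, Bloc1s2, Rab7, Vps16, Vps18, Vps33a and Vps41, from RefSeq on build GRCm38.p6, each 300 bases long. They were searched for CACGTG, the core of the element that lysosomal genes share and that TFEB-family factors bind, and for the longer form TCACGTGA. Each motif reads the same on both strands, and the longer form contains the shorter. CACGTG was in 7.15% of all 32851 promoter windows and TCACGTGA in 0.974%. The windows of Vps16, Vps33a and Bloc1s1 held TCACGTGA, once in Vps16 and 2 times each in the others. The windows of Vps18, Vps41, Bloc1s2 and Rab7 held no CACGTG. The Vps18 window is shown as that of the member with the largest difference in the row used for each gene (the second Bloc1s6 row differed more), and the other 3 as those with the motif, with each motif in capitals.
Vps18 promoter (chr2:119288492-119288791, plus strand): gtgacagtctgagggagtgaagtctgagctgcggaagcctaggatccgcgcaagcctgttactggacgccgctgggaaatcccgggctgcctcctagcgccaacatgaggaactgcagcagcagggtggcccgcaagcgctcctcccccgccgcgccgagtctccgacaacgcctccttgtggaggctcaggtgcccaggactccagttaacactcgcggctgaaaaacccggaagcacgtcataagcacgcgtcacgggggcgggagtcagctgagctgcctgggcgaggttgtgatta
Vps16 promoter (chr2:130424070-130424369, plus strand): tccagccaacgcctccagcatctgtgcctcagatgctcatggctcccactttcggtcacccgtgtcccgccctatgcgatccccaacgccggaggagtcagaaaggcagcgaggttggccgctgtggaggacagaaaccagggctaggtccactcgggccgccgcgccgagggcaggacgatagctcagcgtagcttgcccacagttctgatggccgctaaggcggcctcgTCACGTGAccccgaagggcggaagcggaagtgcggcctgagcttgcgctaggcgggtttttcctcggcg
Vps33a promoter (chr5:123572966-123573265, minus strand): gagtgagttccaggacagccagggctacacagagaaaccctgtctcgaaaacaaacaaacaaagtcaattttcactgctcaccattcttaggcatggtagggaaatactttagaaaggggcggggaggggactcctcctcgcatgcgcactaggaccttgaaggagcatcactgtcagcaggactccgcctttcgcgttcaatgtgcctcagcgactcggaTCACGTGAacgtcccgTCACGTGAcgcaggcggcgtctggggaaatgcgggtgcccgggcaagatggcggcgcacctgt
Bloc1s1 promoter (chr10:128923475-128923774, minus strand): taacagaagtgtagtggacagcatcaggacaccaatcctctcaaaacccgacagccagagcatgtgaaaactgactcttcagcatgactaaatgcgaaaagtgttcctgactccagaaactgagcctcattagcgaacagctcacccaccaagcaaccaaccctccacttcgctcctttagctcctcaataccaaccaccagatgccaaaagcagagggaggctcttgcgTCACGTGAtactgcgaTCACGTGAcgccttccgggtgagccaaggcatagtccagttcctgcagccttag
In Vps16 the core began 18 bases before the annotated start, in Vps33a 28 and 12 bases before it, and in Bloc1s1 19 and 3 bases before it. The 3 genes whose windows held the motif differed by 0.00015, 0.090 and 0.0091 in the order Vps16, Vps33a and Bloc1s1, none past the threshold. A match describes letters in a window and says nothing about binding.

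The other genes of these pathways gave 116 measured genes of 123 listed, and none passed limma's adjusted threshold (0 of 116) or an unadjusted p under 0.05. By sign 51 were higher and 65 lower, with a median difference of -0.0090. The groups did not overlap for 1 higher gene, Bloc1s3, and 2 lower genes, Rab2a and Appl1, beside 6.21% and 2.47% of all genes. The lists were chosen with earlier results of these data known.

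**Figure D3:**
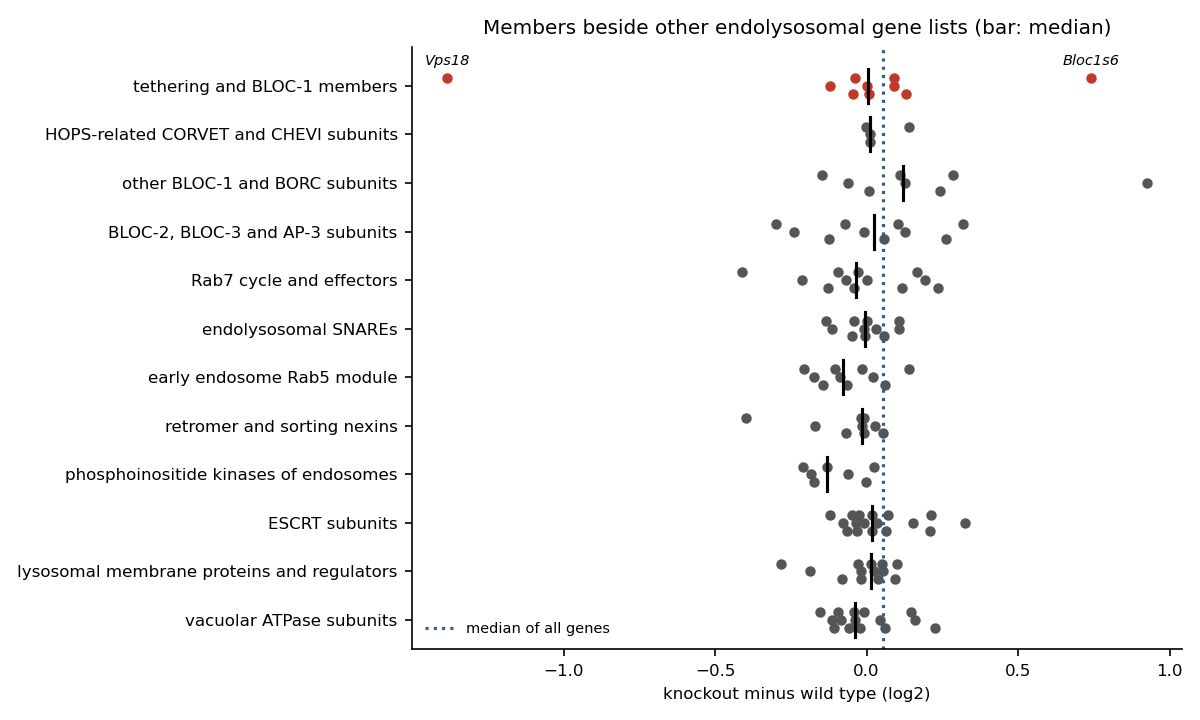
Knockout minus wild-type difference in log2 units of each member (red, top) and of each gene in 11 further endolysosomal lists (grey), with a bar at the median of each list and a dotted line at the median of all genes (0.055). Vps18 (-1.38) lies below every other gene shown, and Bloc1s3 (0.93) and Bloc1s6 (0.74) lie above all others.

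Subunits of BLOC-1 not described so far, and of complexes related to HOPS and BLOC-1, differed by -0.30 to 0.93. Of the CORVET and CHEVI subunits, relatives of HOPS, 3 of 4 were above 0 and the differences ran from -0.00064 for Tgfbrap1 to 0.14 for Vipas39 (SE 0.13, limma adjusted p = 0.907), with Vps33b at 0.013 and Vps8 at 0.012. Of the other BLOC-1 and BORC subunits, 6 of 8 measured were above 0, with a median of 0.12. Bloc1s3, a BLOC-1 subunit, gave 2.34, 2.33 and 2.14 in wild type and 2.51, 4.52 and 2.56 in knockout. Its difference of 0.93 (SE 0.50, limma adjusted p = 0.907) came mostly from knockout array 2, on a row with a mean of only 2.73 over all arrays. Bloc1s4 differed by 0.28 and Borcs5, the BORC subunit that anchors it to lysosomes, by 0.24, both at a limma adjusted p of 0.907. In the BLOC-2, BLOC-3 and AP-3 list 5 of 10 were above 0, with the AP-3 subunit Ap3d1 at 0.32, the BLOC-2 subunits Hps6 at 0.26 and Hps5 at -0.24.

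Among partners of Rab7 and of membrane fusion no gene passed the threshold, and the groups did not overlap for Rab2a and Appl1. In the Rab7 list 5 of 12 measured genes were above 0: Rab2a, a GTPase that also binds HOPS, differed by -0.21, Tbc1d2 by 0.19 and Osbpl1a, an effector that reads cholesterol, by 0.24. Among SNAREs 5 of 11 were above 0, with Stx17, the autophagosomal syntaxin, at 0.11, Ykt6 at -0.12 and Vti1a at -0.14. In the early endosome list 3 of 10 were above 0, with the Rab5 effector Appl1 at -0.21, Rab5a at -0.17 and Rbsn at -0.14. The list of endosomal phosphoinositide kinases and associated proteins had the lowest median (-0.13), with 1 of 7 above 0. In it Pik3r4 was at -0.18, Pik3c3 at -0.13 and Pikfyve at -0.17.

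Retromer, ESCRT, lysosomal membrane and proton pump genes completed the survey. Retromer and sorting nexin genes were above 0 for 2 of 9, and Snx5 at -0.40 had values of 8.74 on knockout array 1 against 7.77 and 7.68 on arrays 2 and 3, so the knockout arrays lay on both sides of wild type. Snx2 was -0.17 and Vps26a -0.068. ESCRT subunits were above 0 for 9 of 17, with Chmp3 at 0.33, Vps4a at 0.21 and Snf8 at 0.15. Lysosomal membrane proteins and regulators were above 0 for 7 of 13, with the cholesterol carrier Npc2 at -0.28, Scarb2 at -0.19 and the channel gene Mcoln1 at 0.10. Vacuolar ATPase subunits were above 0 for 5 of 15, with Atp6v1e1 at -0.15, Atp6v1g1 at 0.22 and Atp6v1c1 at 0.15. None of the genes in this paragraph passed limma's adjusted threshold, where the smallest adjusted p of any gene was 0.241.

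Vps18, Bloc1s6, Vps39 and Vps16 lie on mouse chromosome 2 in the RefSeq table (GRCm38.p6), as does Ctnnd1, while the other 6 members lie on chromosomes 5, 6, 9, 10, 13 and 19. The labels give neither the strain of the mice nor that of the p120f/f allele, so for rows on this chromosome a sequence difference under the probes and a difference in expression cannot be told apart. In gene order 72 measured genes lie between Vps18 and Bloc1s6, and 415 between Ctnnd1 and Vps18. This stretch was examined after the values were seen and no test was made of it. Of the 72 genes, 14 did not overlap between groups (19.4%, beside 8.69% of all genes), 8 higher and 6 lower. The share was 22% for the 50 genes after Bloc1s6 (11 genes) and 10% for the 50 before Vps18 (5 genes). It was 14% and 12% for the 50 genes on either side of Ctnnd1, and 9.73% over chromosome 2. Without knockout array 1, an alternative chosen after seeing the data, 42 of the 72 genes (58.3%) did not overlap, beside 51% of all genes. The share of this stretch was then near the background. Of the 10 members 6 then did not overlap, including Vps18 and Bloc1s6, which were chosen for it. The others were Vps11, Vps33a, Vps39 and Rab7, among the 8 tested.

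Immediate neighbours had smaller differences. Next to Vps18, Rhov gave a difference of -0.077 and overlapped, and Dll4, which encodes a Notch ligand, did not overlap, with 5.67, 5.79 and 5.67 in wild type and 5.54, 5.44 and 5.39 in knockout, a difference of -0.26. Next to Bloc1s6, the antisense gene Bloc1s6os differed by -0.36 and Sqor by -0.15, and both overlapped. The largest difference within the stretch was that of Lcmt2, with 7.09, 7.13 and 7.28 in wild type and 5.89, 6.37 and 6.83 in knockout (-0.80). Vps39, which lies inside the stretch, differed by -0.12 and overlapped.

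**Figure D4:**
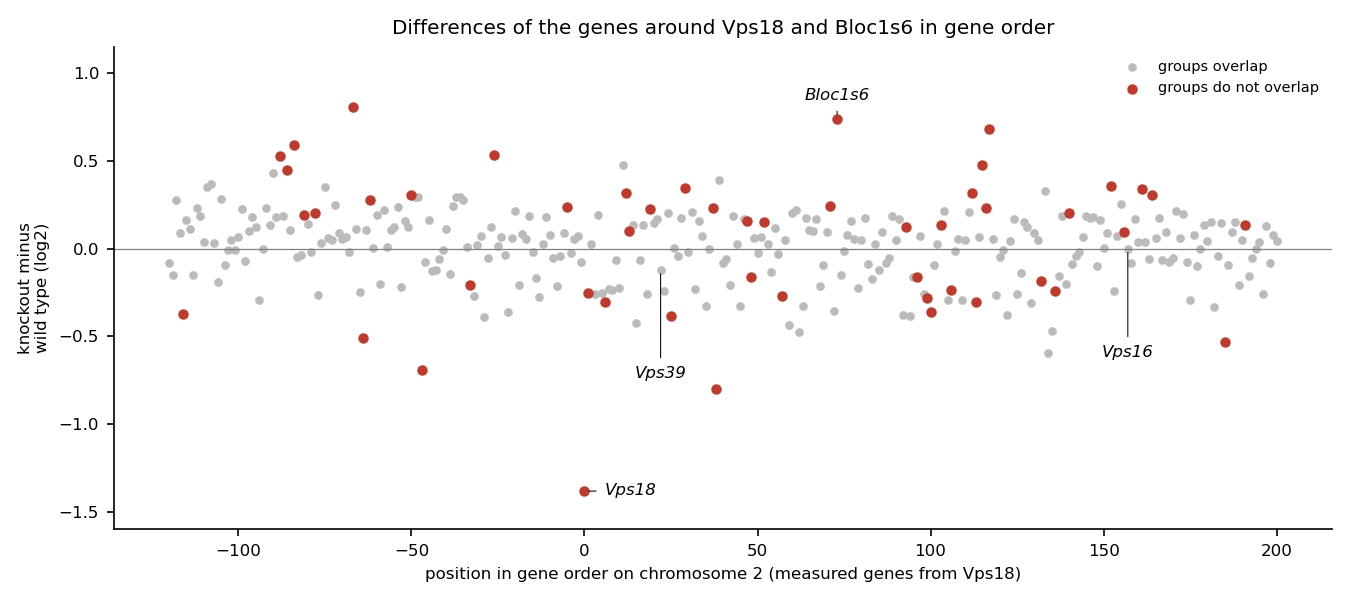
Knockout minus wild-type difference in log2 units for measured genes around Vps18 on chromosome 2, placed by gene order with Vps18 at 0. Red points are genes whose groups do not overlap and grey points the rest. Vps18 is the lowest point at -1.38 and Bloc1s6 stands at 0.74. Vps39, which lies between them, and Vps16, which lies beyond Bloc1s6, are near 0.

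The genes whose patterns were most like Vps18 over the 6 arrays were found by the root mean square distance between mean-centred log2 values, among 9584 genes at or above the median level, leaving out predicted genes with Gm, Rik or LOC names. They were Zfp146 (distance 0.36), Pgm2l1 (0.38), Zfp748 (0.40), Cd226 (0.42) and Npat (0.43). For Bloc1s6 they were Tmem181c-ps (0.072), Serpina10 (0.12), Wtip (0.14), Creg2 (0.14) and Kcnk15 (0.15). No member and no listed endolysosomal gene was among them. A short distance needs a difference of similar size, so the other members, all near 0, could not appear. Zfp748 was the only one of the Vps18 group with a larger difference (-1.49), and all 5 genes like Bloc1s6 were higher on every knockout array, which follows from how they were chosen.

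Levels of other cell types moved with the arrays as well. All 8 measured leukocyte markers were lower in knockout by their means: the list mean was 8.16 to 8.36 on the wild-type arrays, 8.505 on knockout array 1 and 7.35 and 7.41 on knockout arrays 2 and 3. Knockout array 1 had the highest list mean but not the highest value of every leukocyte marker. Ptprc was 9.92 there against 9.44 on wild-type array 1, and Cd3e 8.15 against 8.57. Vps18 was 6.70 and Bloc1s6 6.37 on knockout array 1. Fibroblast markers (8 of 8 lower) had list means of 5.99 to 6.88 in wild type and 5.65 to 6.18 in knockout. Islet markers (3 of 4 lower) ran from 6.76 to 7.21 in wild type and from 6.19 to 6.72 in knockout, without overlap. Erythroid markers (3 of 3 lower) spanned 5.46 to 7.72 and 4.62 to 5.99, duct markers (2 of 3 lower) 5.42 to 6.003 and 5.21 to 5.85, endothelial markers (3 of 5 lower) 4.94 to 5.88 and 4.93 to 5.63, and acinar markers (5 of 8 lower) 10.66 to 10.77 and 10.14 to 10.97, wild type first. No marker is at 0 on this scale. Their part in the member differences was not tested, and in such bulk samples fewer cells of a type and less RNA per cell cannot be told apart.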

How the data were processed

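RNA from 6 samples was measured on 1 array each. The authors deposited a table of log2 expression values with 115830 rows. RMA and Partek are the tools listed in the submitters' processing notes, without versions, and the build behind the rows is not given in the sources used here. A platform annotation gave 25539 rows a single symbol, 2300 several, and left 87991 unnamed. Of the single-symbol rows, 24941 matched RefSeq (GRCm38.p6), used for names, gene order and promoters, and 0 symbols needed an update. Rows can also read pseudogenes or paralogs.

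Knockout minus wild type was fitted for 20259 genes by lmFit and eBayes from limma 3.58.1 (R 4.3.3), with no filter and no block, with Benjamini-Hochberg adjustment and a threshold of 0.05. On simulated data with 20259 genes and 200 changed per size, this comparison recovered 0% of changes of 0.5 log2 units, 51.5% of 1 and 86% of 2. The simulated noise was independent for each gene and array. A shift shared across genes, as on knockout array 1, was not simulated. No detection calls or scan dates were used, and precision is limited by 3 arrays per group. Members and lists were chosen with earlier results of these data known. Named genes were all members, the 3 smallest p-values per list, and the 5 most similar patterns for Vps18 and Bloc1s6. Genes next to these 2 and those discussed on chromosome 2 were chosen after their values were seen, as were Stx12 and Tgfbrap1.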

Additional observations from a re-analysis of the deposited data

How the results depend on the processing

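No gene, and none of the 8 tested members, passed limma's adjusted threshold in the fit as reported (0 of 20259 and 0 of 8, with 708 genes and 0 members at an unadjusted p under 0.05), nor after quantile normalization, a common median, averaging a gene's rows, taking its most variable row, keeping genes above the median level, or a trended and robust prior. With array weights 4797 genes passed, and 0 of the 8 tested members. That setting put a weight of 8.57 on knockout array 2 and 0.14 on knockout array 1. Leaving out each array in turn gave 0 to 2 genes, the 2, Cd72 and Abhd18, without knockout array 1, and 0 members. The count of members above 0 was 6 as reported. It ran from 4 with a common median to 7, as with rows averaged, and stayed within 1.5 times of 6 in all 14 alternatives.

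The sizes for Vps18 and Bloc1s6 moved with the setting, while their signs with single arrays left out were fixed by their choice as separated genes. Vps18 lay between -1.81 (array weights) and -0.99 (rows averaged) and Bloc1s6 between 0.66 and 2.63, the last from the most variable row (1.68 with rows averaged). Of the 8 other members, 4 changed sign. Vps16 was -0.025 after quantile normalization, -0.084 with a common median and -0.043 with array weights, and ran from -0.12 to 0.10 with single arrays left out. Bloc1s1 was -0.075 with a common median and ran from -0.16 to 0.13. Bloc1s2 was 0.024 with the mean of rows and 0.22 with array weights, and ran from -0.20 to 0.17. Vps41 was 0.050 with array weights and ran from -0.13 to 0.020. None of these 8 passed the threshold in any setting (smallest adjusted p = 0.0824, Bloc1s1 with array weights), and the cause of the changes of sign was not tested.

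A replicate block, using the numbers in the titles, gave 0 genes and 0 members. Deviations of same-numbered arrays correlated at 0.041, 0.14 and -0.15, and not every array correlated best with its own number, so the numbers were not taken as pairs. Leaving out knockout array 1 for the counts of groups without overlap was added after seeing the data. Changes of 0.5 log2 units are below what 3 arrays per group recovered in simulation.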
